A study of Mus musculus with 69 samples.

Results

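Kidneys of nephritic NZB/W F1 mice taken at lights on (ZT0) were set against kidneys taken at lights off (ZT12), to describe which differences between dawn and dusk remain in diseased kidney. NZB/W F1 is a hybrid strain that develops lupus nephritis spontaneously. The 13 libraries were all those of the 69 in the series whose labels gave nephritis and ZT0 or ZT12 and that were not repeats, 7 at ZT0 and 6 at ZT12. The mice were 30 to 45 weeks old and were killed 2 to 3 weeks after proteinuria of 300 mg/dl, with blood urea nitrogen under 25 mg/dl, and 12 h of light alternated with 12 h of dark. Whole perfused kidney was used, so that fewer cells of a type and less RNA per cell cannot be told apart. The comparison group was 14 kidneys of young mice aged 12 weeks, of the same strain and 7 at each time, so disease and age cannot be told apart between these groups.

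In most cells of the kidney a transcriptional clock runs through a feedback loop. Arntl, the gene of Bmal1, pairs with Clock or Npas2 to drive the Per and Cry genes, whose proteins repress that pair. Rev-erb (Nr1d1 and Nr1d2) and Ror proteins set the level of Arntl in a second loop, and the PAR bZIP factors Dbp, Tef and Hlf carry the rhythm to other genes. Arntl and Npas2 are therefore known to be high near dawn and the Per, Rev-erb and PAR bZIP genes later in the day.

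Libraries held 26596500 to 37771234 counts in nephritic mice and 25257530 to 35744843 in young mice. They came from 2 sequencing sets, taken from the title prefix. Set 1 held 3 ZT0 and 2 ZT12 nephritic libraries and set 2 held 4 of each. In set 1 the nephritic ZT0 titles begin with CRS and the ZT12 titles with HIL. Time and any difference between these prefixes therefore cannot be told apart in set 1. In set 2 all nephritic titles begin with RX. Levels are CPM, counts scaled to library size, and a log2 difference is ZT0 minus ZT12 from edgeR's quasi-likelihood fit with set as a covariate, so that a positive value is higher at ZT0. Any 2 nephritic libraries differed by far more than sampling noise, and each was counted as its own sample. Proximal tubule markers were present in every kidney. Their summed level was 1672 to 11582 CPM in nephritic mice and 10583 to 12865 CPM in young mice. Nephritic ZT0 library RX10LU stood apart with adrenal gland markers, 1505 CPM in sum against 7.39 to 12.6 in the other 12. Liver markers also varied, from 168 to 3249 CPM in sum at ZT0, highest in RX10LU and next in RX12RU at 1370 CPM, and from 42.9 to 501 CPM at ZT12. The repeat library of nephritic ZT12 mouse RX11RU was most like a nephritic ZT4 mouse (r = 0.9906), over log2 CPM of all genes. Its own original (r = 0.9778) had rank 15 among the libraries compared. Whether repeat and original come from the same mouse was not tested, and the original was used here.

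Of 16076 genes tested in nephritic kidney, 12 passed an adjusted p of 0.05, which is 0.0746%. At ZT0 8 of them were higher (0.0498%) and at ZT12 4 were higher (0.0249%). In young mice the same test called 2579 of 15504 genes (16.6%), with 1176 higher at ZT0 (7.59%) and 1403 at ZT12 (9.05%). An unadjusted p under 0.05 was reached by 2207 genes in nephritic kidney (13.7%). The spread among mice was wider there, with a biological coefficient of variation of 0.305 against 0.135 in young kidney. The 12 genes were Npas2, Arntl, Pla2g5, Amdhd1, Itgb6, Arhgef10l, Dgkg and Nmnat3 at ZT0 and Per3, Per2, Sik1 and Mir22hg at ZT12. All 12 also passed the test in young mice with the same direction, and all 12 kept it under each of the 28 alternatives tried. Among these is the threshold of 0.1, which cannot change a direction. Most of the others refit the libraries that chose the 12 genes, or a part of them, so a kept direction adds little to the test.

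The number of calls depended on single libraries. Without HIL5RU 7 genes were called, 6 of them among the 12, and without RX10RL 5, 4 of them among the 12. Without RX11LL 6 were called, without RX12LL or RX8RU 3 each and without RX9RL or RX11RU 2 each, all among the 12. Per3 and Sik1 passed with any 1 of the 13 libraries left out (largest adjusted p = 0.0223 for each). With RX10LU and RX11RU both left out, edgeR called 0 genes, 2425 of 15805 had an unadjusted p under 0.05, and the adjusted p was 0.0537 for Sik1 and 0.0681 for Per3. Estimating the spread from all 27 nephritic mice, with 6 time points in the fit, gave 661 of 16872 genes (3.92%). Of these 260 were higher at ZT0 and 401 at ZT12, and all 12 were among them. That fit had a biological coefficient of variation of 0.247, against 0.305 for the 13 libraries. The mice it added were taken at other times and were all in set 2, so its passes rest partly on their spread. With the mean log2 CPM of the injury genes Vcam1, Timp1 and Lcn2 as a covariate 210 genes were called, again with all 12. DESeq2 called 594 of 16076 genes, of which 230 were higher at ZT0 and 364 at ZT12.

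Of the clock activators, Npas2 and Arntl were higher at ZT0. Npas2, a paralog of Clock, was 15.6 to 25.1 CPM (median 19.1) in the 7 ZT0 kidneys and 3.65 to 9.17 CPM (median 5.35) in the 6 ZT12 kidneys. No ZT12 kidney reached the lowest ZT0 kidney. Its log2 difference was 1.82 (SE 0.23, adjusted p = 0.0157), against 4.66 (SE 0.13) in young mice, where ZT12 kidneys held 0.886 to 1.69 CPM. Arntl was 18.2 to 32.6 CPM (median 29.3) at ZT0 and 6.47 to 15.1 CPM (median 10.2) at ZT12. These ranges were also apart, and all 6 ZT12 kidneys lay above the highest young one, 4.78 CPM. The log2 difference of Arntl was 1.40 (SE 0.21, adjusted p = 0.0323) and that in young mice was 3.62 (SE 0.14). Both genes were past the test of the difference between nephritic and young mice, by -2.88 (SE 0.27, adjusted p = 1.16e-06) for Npas2 and -2.34 (SE 0.28, adjusted p = 7.42e-05) for Arntl. In that fit of 27 libraries both diagnoses share the set term, so that its value need not equal the gap between the separate fits.

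Clock itself was 51.3 to 72.1 CPM at ZT0 and 42.7 to 72.8 CPM at ZT12, which overlapped. Its log2 difference was 0.21 (SE 0.10, adjusted p = 0.375), with 0.64 in young mice (adjusted p = 8.27e-06). Rora, a nuclear receptor that activates Arntl, was 40.01 to 69.96 CPM at ZT0 and 30.1 to 81.8 CPM at ZT12, which overlapped. It gave -0.01 (SE 0.19, adjusted p = 0.99) over both sets, 0.51 in set 1 and -0.33 in set 2, against -0.32 in young mice (adjusted p = 0.00498). Rorb was too low to test in the nephritic fit.

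**Figure D1:**
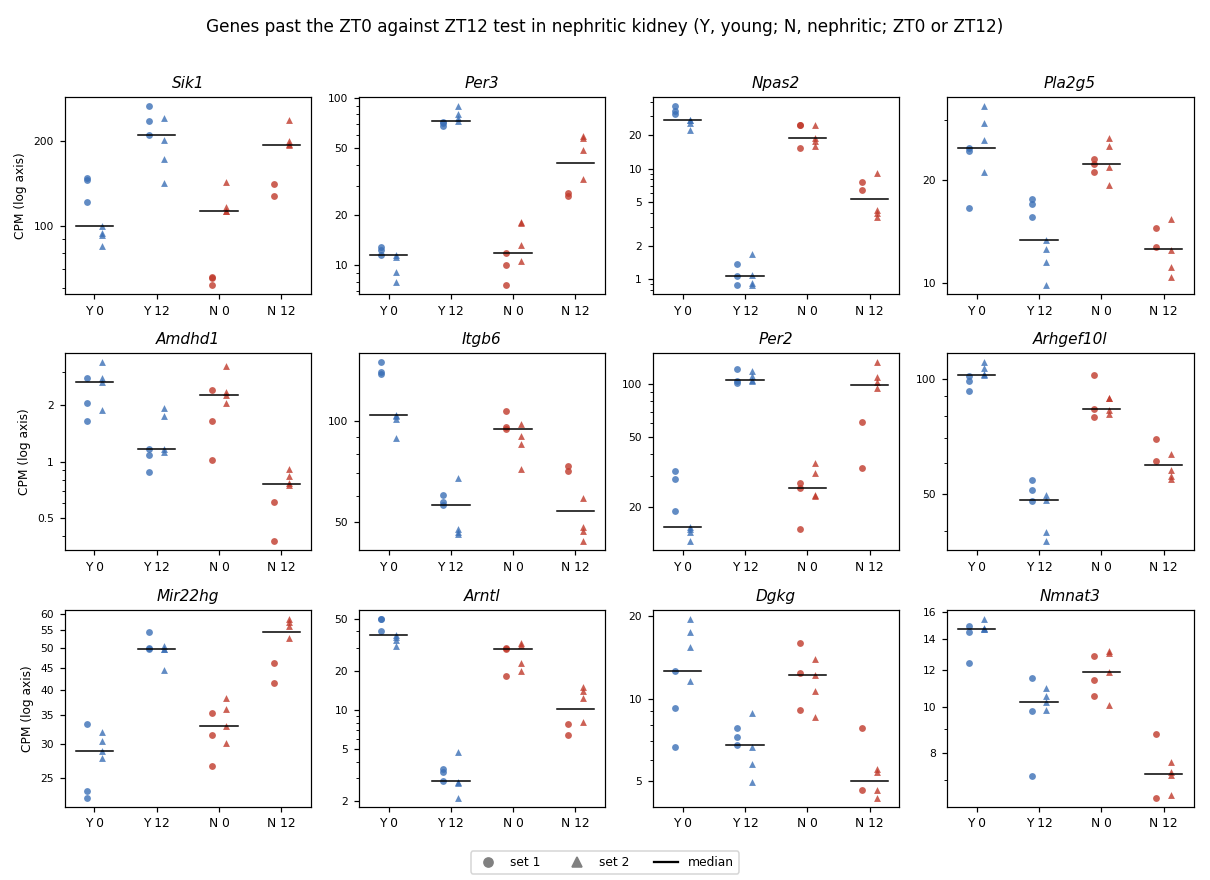
Level of the 12 called genes in each library, in CPM on a log axis, for young (Y, blue) and nephritic (N, red) kidneys at ZT0 and ZT12. Circles are set 1, triangles set 2 and bars the median. Within each set the nephritic ZT0 and ZT12 libraries are apart for all 12 genes, while Sik1, Itgb6 and Per2 overlap when the sets are joined.

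The repressors Per2 and Per3 were higher at ZT12. Per3 was 7.63 to 18.1 CPM (median 11.8) at ZT0 and 26.1 to 59.5 CPM (median 40.7) at ZT12, with no overlap. Its log2 difference was -1.59 (SE 0.18, adjusted p = 0.00588) in nephritic and -2.81 (SE 0.10) in young mice, whose ZT12 kidneys all exceeded the highest nephritic one at 68.4 to 89.6 CPM. The test of nephritic against young gave 1.09 (SE 0.25, adjusted p = 0.0663) and did not pass. Per2 was 15.03 to 35.7 CPM (median 25.8) at ZT0 and 33.5 to 133 CPM (median 99.0) at ZT12. Joined over sets these overlapped, since the 2 set 1 kidneys at ZT12 held 33.5 and 61.4 CPM and the 4 of set 2 held 95.1 to 133 CPM. The log2 difference of Per2 was -1.61 (SE 0.23, adjusted p = 0.0205), and -2.56 in young mice. Nephritic minus young was 0.70 (SE 0.35, adjusted p = 0.449), so that a weaker difference was not shown for Per2 in the fit with a shared set term.

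The other 8 repressors did not pass edgeR's test in nephritic kidney, while all 10 passed in young mice, each higher at ZT12. DESeq2 called 5 of the 10 in nephritic kidney, Bhlhe41 (adjusted p = 0.000847), Nr1d2 (0.0036) and Ciart (0.0178) besides Per2 and Per3. Over all genes DESeq2 called 594 of 16076. The list had a median log2 difference of -0.85 in nephritic and -1.64 in young mice, beside 0.05 and -0.01 over all genes. Bhlhe41 was closest, with 3.97 to 7.59 CPM at ZT0, 6.74 to 27.9 CPM at ZT12 and a log2 difference of -1.12 (SE 0.22, adjusted p = 0.112). Nr1d2, a Rev-erb gene, gave -1.04 (SE 0.23, adjusted p = 0.13) against -2.06 in young mice. With the spread of all 27 nephritic mice both of these passed (adjusted p = 0.011 and 0.0131). Nr1d1, the other Rev-erb gene, gave -0.06 (SE 0.42), with -1.27 in set 1 and 0.63 in set 2. Per1, which also responds to glucocorticoids, gave -0.28 (SE 0.33), with 19.8 to 120 CPM at ZT0 and 30.0 to 130 CPM at ZT12, and -1.83 (SE 0.14) in young mice.

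Cry1 and Cry2, partners of the Per proteins, differed between sets. Cry1 was 15.9 to 24.4 CPM at ZT0 and 10.4 to 13.9 CPM at ZT12 in set 1, a log2 difference of 0.68. In set 2 the order was opposite, again with no overlap, 10.3 to 16.3 CPM at ZT0 and 24.2 to 32.2 CPM at ZT12, a log2 difference of -1.20. Over both sets Cry1 gave -0.52 (SE 0.31, adjusted p = 0.48). Cry2 gave 0.12 in set 1, -1.14 in set 2 and -0.67 (SE 0.24, adjusted p = 0.238) overall. Ciart, a repressor of the Bmal1 and Clock pair, was 0.567 to 2.86 CPM at ZT0 and 1.90 to 6.63 CPM at ZT12, and gave -1.17 (SE 0.32, adjusted p = 0.143). In young mice it gave -3.73 (SE 0.19), and the difference between the diagnoses passed at 2.43 (SE 0.40, adjusted p = 0.00879).

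**Figure D2:**
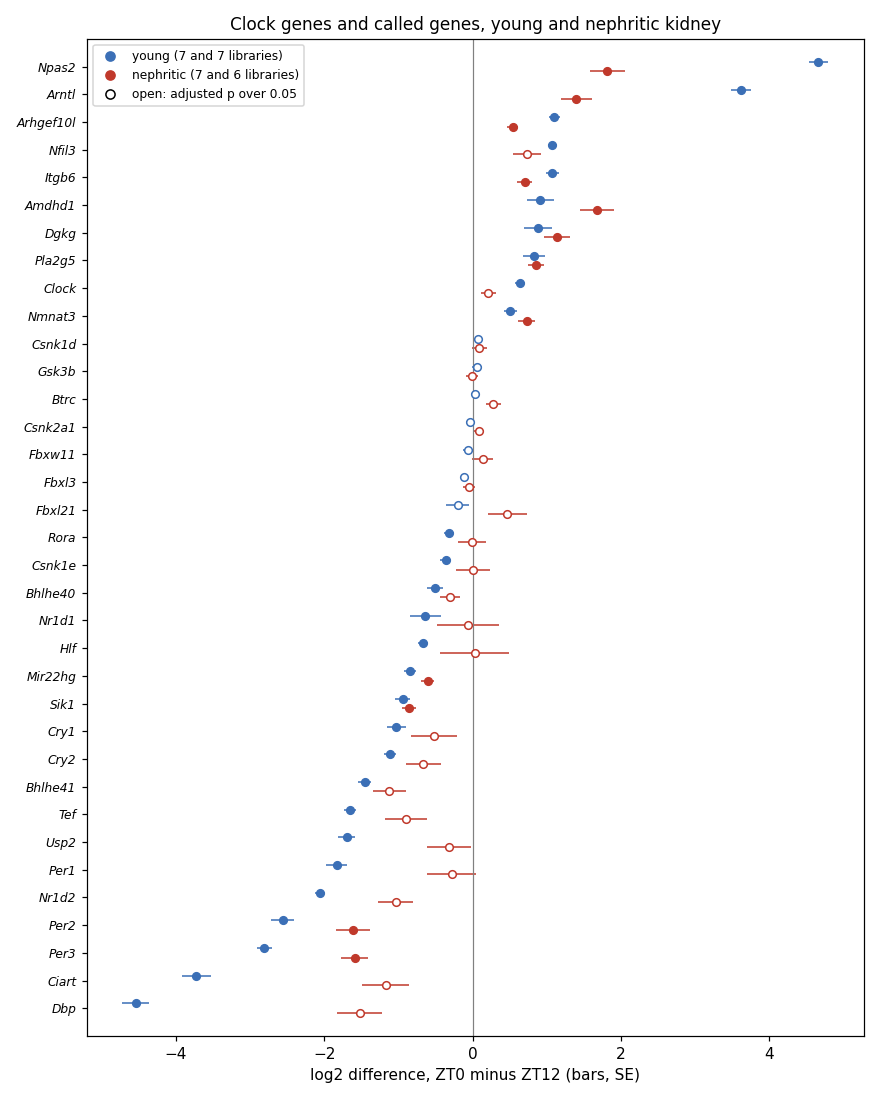
Log2 difference of ZT0 minus ZT12 with its SE for clock genes and the 12 called genes, in young (blue) and nephritic (red) kidney, ordered by the young value. Filled points passed an adjusted p of 0.05. Npas2 falls from 4.66 in young to 1.82 in nephritic mice and Dbp moves from -4.54 to -1.52, while Sik1 is at -0.94 and -0.85.

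The PAR bZIP factors and their repressor had 0 of 4 genes past edgeR's test in nephritic kidney, where all 4 had passed in young mice. Dbp was 3.97 to 10.04 CPM (median 6.37) at ZT0 and 8.72 to 34.5 CPM (median 19.7) at ZT12, where the young kidneys held 63.7 to 129 CPM. Its log2 difference was -1.52 (SE 0.30, adjusted p = 0.112), and -4.54 (SE 0.18) in young mice. Dbp passed the test between the diagnoses, at 2.98 (SE 0.36, adjusted p = 7.42e-05). Tef gave -0.90 (SE 0.28, adjusted p = 0.192) and Hlf 0.03 (SE 0.47, adjusted p = 0.985), against -1.66 and -0.66 in young mice. For Hlf the value was 1.15 in set 1 and -0.60 in set 2. Nfil3, a repressor at the same sites, gave 0.74 (SE 0.19, adjusted p = 0.143), against 1.08 in young mice. In nephritic kidney Dbp, Tef and Nfil3 had an unadjusted p under 0.05 in edgeR, and these 3 passed with DESeq2 (adjusted p = 0.000355, 0.0403 and 0.0161). Over all genes 13.7% had such an unadjusted p and DESeq2 called 594 of 16076.

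Over the 29 clock genes listed, 28 were tested and 21 passed the young test. Of these 21, 4 passed in nephritic kidney and 19 had the same sign there, each of the 19 with a smaller log2 difference than in young mice. The young test chose these genes, so their young sizes are a description. The test of the difference itself was passed by 4 clock genes, Npas2, Arntl, Dbp and Ciart. The 9 kinases and ubiquitin ligases that act on clock proteins had a median of 0.09 and 0 called by edgeR or DESeq2, with Btrc alone at an unadjusted p under 0.05 (0.28, SE 0.10, adjusted p = 0.237).

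Promoters were read from the RefSeq tables of build GRCm38.p6, which held 10 of the 12 called genes and 23 of the 29 clock genes, over the 250 bases before each start. The E-box CACGTG, bound by the Bmal1 and Clock pair, was in 1 of the 10 called genes and 5 of the 23 clock genes, and in 6.02% of all 32851 promoters. A D-box (TTATGTAA, TTACGTAA or TTATGCAA), bound by PAR bZIP factors, was in 1 and 2 of them and in 1.61% of all. Rev-erb/ROR elements (TAGGTCA or TGGGTCA) were in 0 and 1 (5.38% of all), cAMP elements (TGACGTCA) in 0 and 1 (1.55%) and heat shock elements (GAANNTTC) in 1 and 0 (6.69%). Both strands were searched. A gene was counted when any of its starts held the motif, whereas the shares of all promoters are per start. Genes with several starts had more chances of a match, so the counts and shares are not in the same unit. Below are the windows of Per3 and Dgkg, the called genes with a clock motif, and of Ciart, whose difference between the diagnoses passed, each on the minus strand and without bases of the annotated gene. Capitals mark D-boxes in Per3, 205 and 158 bases before the start, and E-boxes in Dgkg, 117 bases before, and in Ciart, 116, 58 and 44 bases before. These distances run to the start used in the search, which in these 3 genes lies inside the annotated gene. The bases between were cut from the windows, now 208, 179 and 221 bases long, so each motif is nearer to the end of its window. They lie at chr4:151044708-151044915, chr16:22657303-22657481 and chr3:95882258-95882478. Such matches are a description and not evidence of binding in these kidneys.
Per3: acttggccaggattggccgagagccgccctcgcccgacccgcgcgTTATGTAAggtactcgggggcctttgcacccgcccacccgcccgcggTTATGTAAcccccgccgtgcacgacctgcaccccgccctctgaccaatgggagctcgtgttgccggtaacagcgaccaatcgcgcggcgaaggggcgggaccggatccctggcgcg
Dgkg: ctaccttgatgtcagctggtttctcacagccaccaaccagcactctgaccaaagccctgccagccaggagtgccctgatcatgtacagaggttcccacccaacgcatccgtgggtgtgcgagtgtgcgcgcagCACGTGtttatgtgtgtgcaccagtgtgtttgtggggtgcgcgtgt
Ciart: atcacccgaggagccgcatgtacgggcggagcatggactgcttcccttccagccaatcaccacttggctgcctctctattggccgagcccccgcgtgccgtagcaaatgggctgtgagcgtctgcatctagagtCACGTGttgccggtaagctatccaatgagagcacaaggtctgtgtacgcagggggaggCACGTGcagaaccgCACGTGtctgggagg

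Sik1, a salt-inducible kinase that restrains cAMP-driven transcription, had the smallest p. It was 61.6 to 144 CPM (median 113) at ZT0 and 128 to 238 CPM (median 194) at ZT12, which overlapped over both sets. In set 1 the levels were 61.6 to 65.6 CPM at ZT0 and 128 to 141 CPM at ZT12, and in set 2 they were 113 to 144 CPM and 194 to 238 CPM. Its log2 difference of -0.85 (SE 0.09, adjusted p = 0.00588) was close in size to that of young mice, -0.94 (SE 0.10). Nephritic minus young was -0.01 (SE 0.28, adjusted p = 0.995). That error is from the fit in which both diagnoses share the set term. At ZT0 Sik1 was lower in set 1 than in set 2 in nephritic mice. In young mice it was higher in set 1, 121 to 148 CPM against 84.6 to 100 CPM in set 2. The shared term cannot follow both orders. A set term for each diagnosis was fitted as an alternative, but Sik1 was not followed in that fit. The part of the shared term in the error of Sik1 was therefore not tested. The 2 differences are therefore not shown to be equal or unequal. Mir22hg, the host transcript of miR-22, was 26.6 to 38.4 CPM at ZT0 and 41.6 to 58.5 CPM at ZT12, a log2 difference of -0.60 (SE 0.09, adjusted p = 0.0205) against -0.84 in young mice.

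The remaining 6 genes were higher at ZT0 and are not part of the clock loop. Pla2g5, a secreted phospholipase A2, was 19.3 to 26.6 CPM at ZT0 and 10.4 to 15.5 CPM at ZT12, with no overlap. Its log2 difference was 0.86 (SE 0.11, adjusted p = 0.0157) in nephritic and 0.82 (SE 0.15) in young mice. Amdhd1, an enzyme of histidine breakdown, was low, 1.03 to 3.25 CPM at ZT0 and 0.377 to 0.920 CPM at ZT12. It gave 1.68 (SE 0.23, adjusted p = 0.0205), and 0.91 (SE 0.18) in young mice. The difference between the diagnoses was 0.70 (SE 0.28, adjusted p = 0.318) and did not pass. The highest Amdhd1 level at ZT0, 3.25 CPM, was in RX10LU, where the sum of liver and pancreas markers was also highest. At ZT12 that sum was highest in RX11RU, which held 0.757 CPM of Amdhd1. In young mice Amdhd1 averaged 10.3 CPM at ZT8 with an SD of 15.5 CPM. Whether liver tissue had a part in its levels was not tested.

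Dgkg, a diacylglycerol kinase, was 8.56 to 15.9 CPM at ZT0 and 4.36 to 7.80 CPM at ZT12, a log2 difference of 1.14 (SE 0.18, adjusted p = 0.0396) against 0.88 in young mice. Nmnat3, which makes NAD in mitochondria, was 10.1 to 13.2 CPM and 6.40 to 8.78 CPM, a log2 difference of 0.73 (SE 0.12, adjusted p = 0.0396) against 0.51. Itgb6, an integrin subunit that activates TGF-beta, was 72.1 to 108 CPM and 43.8 to 73.5 CPM, with a small overlap, a log2 difference of 0.70 (SE 0.10, adjusted p = 0.0205) against 1.08. Arhgef10l, a guanine nucleotide exchange factor, was 79.5 to 102 CPM and 54.6 to 69.5 CPM, a log2 difference of 0.54 (SE 0.08, adjusted p = 0.0205) against 1.10. It alone of these 6 passed the test between the diagnoses, at -0.61 (SE 0.11, adjusted p = 0.0138).

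Joined over the sets, 9 of the 12 called genes had ZT0 and ZT12 ranges that did not overlap, where 87 of all 16076 genes did not (0.541%). Within both sets, with the same direction, all 12 were apart, as were 279 of all genes (1.74%). These counts use the contrast that called the genes and add nothing to the test. Every called gene but Amdhd1 overlaps another annotated gene. Per3 shares its locus on chromosome 4 with Uts2, for example, Pla2g5 with Pla2g2a and Npas2 with predicted genes. Whether counting used strand is not given, so reads of such neighbours may be assigned to either.

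**Figure D3:**
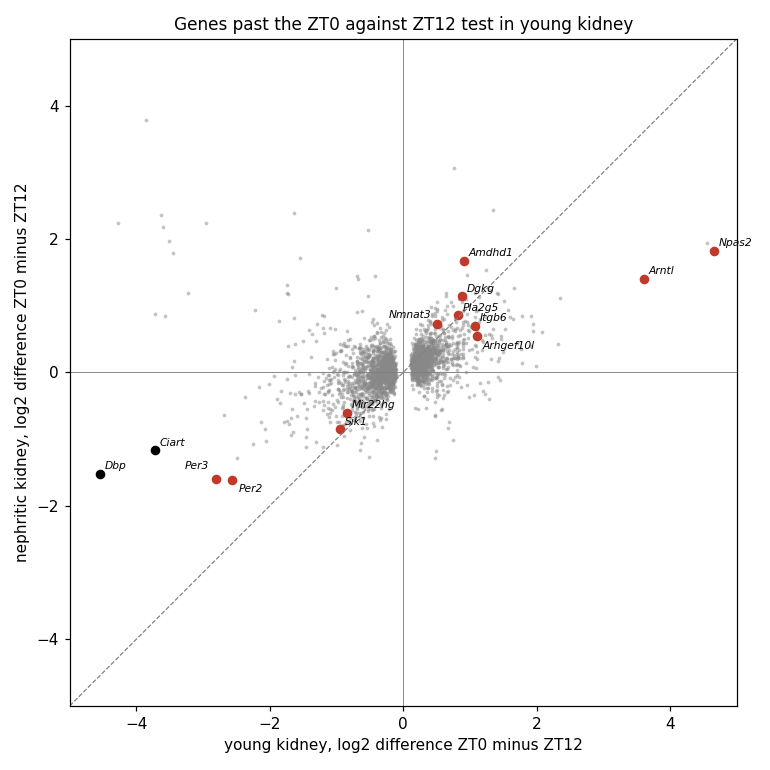
Log2 difference of ZT0 minus ZT12 in young (x) and nephritic (y) kidney for genes past the young test, 2561 of 2568 being inside the axes. Red points are the 12 genes called in nephritic kidney, black points Dbp and Ciart, and the dashed line marks equal differences. Genes higher at ZT0 in young mice lie mostly above 0 (83% of 1175), and those higher at ZT12 are split about 0 (53.7% of 1393 below). Over all genes tested the nephritic median is 0.0485.

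The panel of genes past the young test was then followed into nephritic kidney. Of its 2568 genes tested in both, 1723 (67.1%) had the same direction in nephritic mice, 12 were called there and 21 passed the test between the diagnoses. Among the 12844 genes not past the young test, 54.8% had the same direction. The median log2 difference over all genes tested was 0.0485 in nephritic and -0.0115 in young mice. The shares by direction that follow are not corrected for that lean towards ZT0 in nephritic mice. Of the 1175 genes higher at ZT0 in young mice, 83% were higher at ZT0 in nephritic mice, with a median log2 difference of 0.194 against 0.316. Of the 1393 higher at ZT12, 53.7% kept that direction, with a median of -0.0177 against -0.366.

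That contrast between dawn and dusk genes depended on the sequencing set. In set 2 alone, 84.9% of the ZT0 genes and 75.8% of the ZT12 genes kept their direction. In set 1 alone, with 3 and 2 libraries of different title prefix, 63% and 39.4% did. The 2 ZT12 kidneys of set 1, HIL5RU and HIL5LL, held 1672 and 2407 CPM of proximal tubule markers, and the 3 ZT0 kidneys of set 1 held 2204 to 7042 CPM. In set 2 the proximal tubule sum was 2487 to 11582 CPM at ZT0 and 6438 to 10476 CPM at ZT12. The part of these levels in the result was not tested. When the panel was chosen in young set 2 alone and kept to genes also tested in young set 1, 81.8% of 1755 genes kept their direction in young set 1, which did not choose them, and 74.4% did in the 13 nephritic libraries. Their median difference in the direction of choice was 0.247 in young set 1 and 0.162 in nephritic kidney.

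The lists of kidney metabolism and hormone response had no member past edgeR's test in nephritic kidney, which over all genes called 0.0746%, so that a count of 0 in lists of this size is near the background. Their other counts stand beside 16.6% of all genes called in young mice and 13.7% with an unadjusted p under 0.05 in nephritic mice. Of 26 genes of fatty acid oxidation and its regulator PPAR-alpha, 16 were higher at ZT12 and 1 at ZT0 in young mice, and edgeR and DESeq2 called 0 in nephritic mice, with 0 at an unadjusted p under 0.05. In nephritic kidney the list median was 0.19 over both sets, 0.97 in set 1 and -0.25 in set 2, against -0.24 in young mice. Slc25a20, the mitochondrial carnitine carrier, gave -0.18 (SE 0.18, adjusted p = 0.678) in nephritic and -0.77 (SE 0.08) in young mice. Acaa1b, a peroxisomal thiolase, gave 0.41 (SE 0.52, adjusted p = 0.735) against -0.90 in young mice. None of the 26 passed edgeR's test between the diagnoses with a shared set term, so that fit showed a loss of the difference for none of them. The same holds for every member of the glucocorticoid, heat shock, sodium transport, receptor, lipid, glucose and drug lists. With a set term for each diagnosis 59 genes passed against 21, and members of these lists were not followed in that fit.

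Of 18 glucocorticoid-responsive genes, 7 were higher at ZT12 in young mice and 0 were called in nephritic mice by edgeR or DESeq2, with 2 at an unadjusted p under 0.05. The list median was -0.04 over both sets, 0.20 in set 1 and -0.21 in set 2, against -0.53 in young mice. Zbtb16, a zinc finger factor induced by glucocorticoids, gave -0.74 (SE 0.51, adjusted p = 0.544) in nephritic kidney, 0.62 in set 1 and -1.46 in set 2, and -2.13 (SE 0.17) in young mice, and Angptl4, an inhibitor of lipoprotein lipase, gave -0.18 (SE 0.36, adjusted p = 0.834) and -2.01 (SE 0.41). Among 23 heat shock genes, 3 were higher at ZT0 in young mice and 0 were called in nephritic mice by either tool, 2 having an unadjusted p under 0.05, with Hsp90aa1 at 0.08 (SE 0.19) against 0.53 (SE 0.11). Of 18 genes of sodium transport, 5 were higher at ZT12 in young and 0 called in nephritic mice by either tool, 1 having an unadjusted p under 0.05, and Atp1b1, a subunit of the sodium pump, gave 0.11 (SE 0.21) against -0.47 (SE 0.06).

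In the list of water, vasopressin and vascular receptors, 8 of 14 passed in young and 0 in nephritic mice by edgeR, 3 having an unadjusted p under 0.05. Avpr1a, the vasopressin V1a receptor, had the smallest adjusted p of them, at 0.83 (SE 0.17, adjusted p = 0.114) against 1.60 (SE 0.08) in young mice, and with the spread of 27 mice it passed (adjusted p = 0.00774), as it did with DESeq2 (0.00106). Of 16 genes of lipid synthesis, edgeR called 0 in nephritic mice, with 2 at an unadjusted p under 0.05, and 3 in young mice. Srebf2, the regulator of sterol synthesis, gave 0.32 (SE 0.08, adjusted p = 0.143), and 0.31 (SE 0.06) in young mice. Idh1, an NADPH-producing dehydrogenase of the 16 glucose genes, gave 0.47 (SE 0.15, adjusted p = 0.196) against 0.54 (SE 0.08). Both passed with the spread of 27 mice and with DESeq2. For drug metabolism, 0 of 26 genes passed in nephritic mice by edgeR or DESeq2, 2 having an unadjusted p under 0.05, and 8 passed in young mice. The median of that list was 0.91 in set 1 and -0.02 in set 2. Cyp2e1, a cytochrome P450, was at 0.84 (SE 0.39, adjusted p = 0.366) over both sets, 2.11 in set 1 and 0.14 in set 2, and at -1.19 (SE 0.14) in young mice, and the difference between the diagnoses was 1.85 (adjusted p = 0.0545).

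Clock-controlled genes of cell cycle and metabolism had 1 of 15 called by edgeR in nephritic kidney, Sik1, and 13 in young mice. DESeq2 called 3, Coq10b, Leo1 and Sik1, and 5 had an unadjusted p under 0.05. Leo1, a subunit of the PAF1 elongation complex, gave 0.36 (SE 0.08, adjusted p = 0.13, and 0.042 with the spread of 27 mice) against 0.81 (SE 0.06), and Wee1, a mitotic kinase, gave -0.43 (SE 0.23) against -1.20 (SE 0.07). Immediate early (11 genes), cold-inducible (5) and interferon-stimulated genes (11) had 0 called in nephritic kidney by either tool, with 0, 0 and 1 at an unadjusted p under 0.05 and medians of -0.39, -0.20 and -0.21. In young mice 1, 0 and 2 of them were called, all higher at ZT12.

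The difference in size between nephritic and young mice passed for 21 of 16684 genes (0.126%). All 21 passed in young mice. In 15 of them the nephritic difference had the same sign and was smaller, and in 6 it had the opposite sign. Besides Npas2, Arntl, Dbp, Ciart and Arhgef10l, the 10 with the smallest p held Micalcl, Pnmt, Dtx4, Mmp15 and Ppm1h. Dtx4, a ubiquitin ligase of the Notch pathway, was 32.3 to 65.8 CPM at ZT0 and 18.4 to 53.0 CPM at ZT12, a log2 difference of 0.63 (SE 0.21) against 1.94 (SE 0.08). Mmp15, a membrane metalloproteinase, was 8.11 to 13 CPM and 6.60 to 13.5 CPM, a log2 difference of 0.20 (SE 0.14) against 1.31 (SE 0.12). Ppm1h, a protein phosphatase, was 107 to 138 CPM and 79.6 to 103 CPM, a log2 difference of 0.39 (SE 0.08) against 0.89 (SE 0.06). Dtx4 and Mmp15 had an adjusted p of 0.0138 and Ppm1h one of 0.0259 in the test between the diagnoses.

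Pnmt, the adrenaline-forming enzyme of the adrenal medulla, was 33.1 CPM in RX10LU and 0 to 0.209 CPM in the other 12 nephritic libraries, and 50.4 and 54.1 CPM in 2 young ZT12 libraries. The 10 genes with the largest young differences included Pnmt, Th, Chga, Chgb, Dbh, Scg2, Phox2a, Rab3c and Resp18, most of them genes of neuroendocrine cells. The adrenal marker sum was 440, 253, 2047 and 2248 CPM in 1 young ZT0 and 3 young ZT12 libraries and at most 10.9 CPM in the others. Its part in these differences was not tested. Leaving out 1 nephritic library moved the count of 21 to between 10 and 52 genes, with 10 without RX10LU or RX11RU, 11 without RX8RU, 13 without CRS60, 36 without HIL5LL, 40 without RX10RL and 52 without RX12RU. Without both RX10LU and RX11RU 9 passed, all of them among the 21, and Npas2, Arntl, Dbp and Ciart were among the 9 (largest adjusted p of these = 0.0173).

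**Figure D4:**
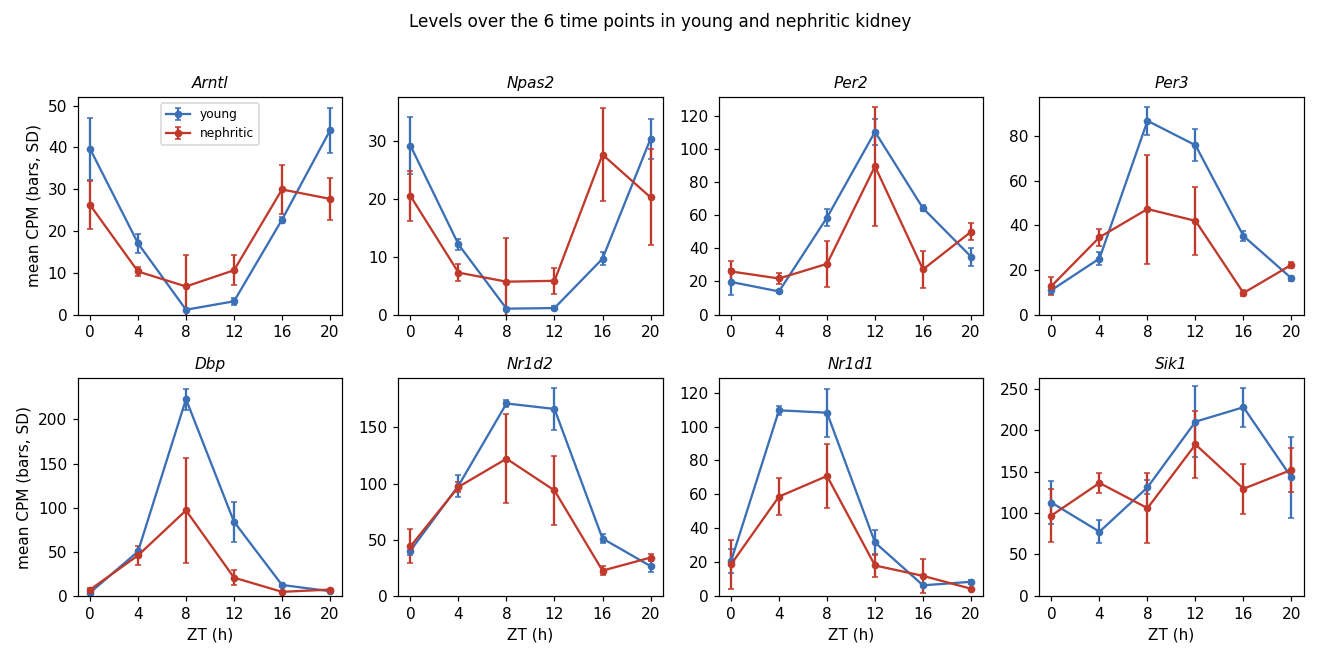
Mean CPM with its SD at 6 time points for 8 genes in young (blue) and nephritic (red) kidney. At ZT0 and ZT12 the Arntl means are 26.3 and 10.6 CPM in nephritic and 39.7 and 3.18 CPM in young mice, and Dbp is highest at ZT8 in both.

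A pair of times 12 h apart sees a rhythm only in part. Arntl in nephritic mice was 26.3 CPM on average at ZT0, 6.73 at ZT8, 10.6 at ZT12 and 30.0 at ZT16, and in young mice it was 39.7, 1.17, 3.18 and 22.7 CPM. Npas2 was 27.6 CPM at ZT16 in nephritic and 9.64 CPM in young mice. Dbp was highest at ZT8 in both, at 96.9 CPM in nephritic and 223 CPM in young mice. In nephritic kidney the highest and the lowest mean of these 3 genes were at ZT8 and ZT16, and neither was at ZT0 or ZT12. With 3 or 4 nephritic mice at the times other than ZT0 and ZT12, all from set 2, these means are a description.

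**Figure D5:**
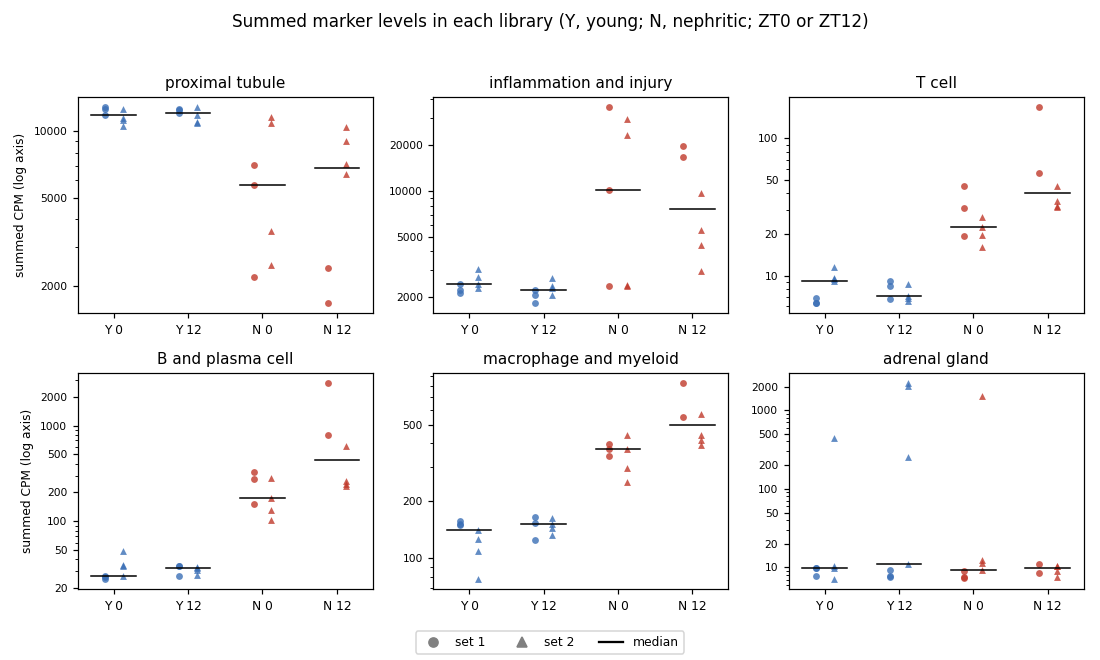
Summed CPM of 6 marker lists in each young (Y) and nephritic (N) library at ZT0 and ZT12, on log axes, with circles for set 1, triangles for set 2 and bars for the median. B and plasma cell markers range from 102 to 327 CPM at nephritic ZT0 and from 234 to 2814 CPM at ZT12, and the adrenal sum of one nephritic ZT0 library is 1505 CPM.

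Immune cell markers had higher medians in the ZT12 kidneys, with ranges that overlapped when the sets were joined and no gene past edgeR's test over the 13 libraries. The B and plasma cell markers summed to 102 to 327 CPM (median 176) at ZT0 and 234 to 2814 CPM (median 438) at ZT12. HIL5RU was the highest, and in young mice the sum was 25.0 to 49.3 CPM. The list median was -1.70 on the log2 scale and -1.12 in set 2 alone. For the T cell markers the sum was 16.1 to 45.2 CPM at ZT0 and 31.6 to 169 CPM at ZT12, with a median of -1.19 and of -0.82 in set 2. Within each set the T cell sums were apart. They were at most 45.2 CPM at ZT0 and at least 55.7 CPM at ZT12 in set 1, and 26.7 and 31.6 CPM in set 2. The B and plasma cell sums and the myeloid sums were apart in set 1 and overlapped in set 2. By edgeR 0 of 8 B and plasma cell and 0 of 6 T cell genes passed, where 7 and 6 had an unadjusted p under 0.05 and DESeq2 called 6 and 5. Over all genes 13.7% had such an unadjusted p, DESeq2 called 594 of 16076 and the 27-library fit called 3.92%. Sdc1, a plasma cell and epithelial proteoglycan, had its higher median at ZT0, 46.1 against 34.9 CPM. With the spread of 27 mice 3 B cell genes (Cd79a, Ms4a1 and Jchain) and 4 T cell genes (Cd3e, Cd3g, Cd4 and Lck) were called. The sum of macrophage and myeloid markers was 250 to 445 CPM at ZT0 and 393 to 834 CPM at ZT12, with 0 of 8 genes past edgeR's test, 4 at an unadjusted p under 0.05 and 1 called by DESeq2. Itga4, an integrin subunit of leukocytes, followed the same order, at 7.27 to 17.3 CPM and 13.7 to 67.4 CPM, and passed the test between the diagnoses (-1.81, SE 0.35, adjusted p = 0.0321), with -1.28 in nephritic and 0.48 in young mice. The part of immune cell number in these values was not tested. Of 11 proliferation genes 0 passed by edgeR or DESeq2, 2 having an unadjusted p under 0.05, with a median of -0.71, and Mki67, a marker of dividing cells, gave -1.01 (SE 0.43, adjusted p = 0.328).

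Injury varied widely at both times. The summed inflammation and injury genes were 2380 to 35665 CPM (median 10112) at ZT0 and 2964 to 19621 CPM (median 7623) at ZT12, against 1821 to 3076 CPM in young mice. Havcr1, a marker of tubular injury, was 22.5 to 1110 CPM (median 186) at ZT0 and at least 42.9 CPM (median 131) at ZT12, with a log2 difference of 1.24 (adjusted p = 0.602). Of the 17 genes edgeR called 0, with 1 at an unadjusted p under 0.05 that DESeq2 called (Tnf, a cytokine), and the list median was 0.03 over both sets, -0.84 in set 1 and 0.75 in set 2. With the injury covariate the 12 called genes kept log2 differences from -1.70 in Per2 to 1.87 in Npas2, and Dbp (adjusted p = 0.0396), Tef (0.000466), Ciart (0.0329), Bhlhe41 (0.0414), Cry2 (0.0455) and Avpr1a (0.0312) passed as well.

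Liver and pancreas markers, fixed as a list of cell types that such samples could hold, had 4 genes tested, with a list median of 2.16 on the log2 scale, 2.45 in set 1 and 1.99 in set 2, and -0.85 in young mice. Alb, the gene of serum albumin, was 27.4 to 3040 CPM (median 251) at ZT0 and 2.26 to 388 CPM (median 24.2) at ZT12, which overlapped. Its log2 difference was 3.72 (SE 1.04, adjusted p = 0.152). Apoa1, an apolipoprotein, gave 2.80 (SE 0.86, adjusted p = 0.182) and Serpina1a, a protease inhibitor of plasma, 1.52 (SE 0.45, adjusted p = 0.168). EdgeR called 0 of the 4 over the 13 libraries and 3 had an unadjusted p under 0.05, and DESeq2 and the 27-library fit each called these 3, higher at ZT0. Over all genes 13.7% had such an unadjusted p, DESeq2 called 594 of 16076 and the 27-library fit called 3.92%. The pancreas enzymes Cpa1, Prss2 and Pnlip were too low to test. Without RX10LU and RX11RU the list median was 2.23. Whether liver tissue, or these genes in kidney cells, gave the levels was not tested.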

How the data were processed

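The deposited table holds whole-number counts per gene symbol, which the authors made from poly(A) RNA libraries sequenced on an Illumina HiSeq instrument, paired-end with 150 bp per the labels. The submitters' processing notes name mm10 and HISAT, whereas the study's methods name a Burrows-Wheeler aligner with at most 2 mismatches. The settings and any use of strand are not given in the sources used here. Of 24538 symbols, 15 with empty cells were left out. Members and gene lists were chosen with earlier results of these data known.

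The 13 nephritic libraries at ZT0 and ZT12 were fitted with edgeR 4.0.16 (R 4.3.3, quasi-likelihood F test, TMM, sequencing set as covariate) over genes with at least 100 counts in all, with Benjamini-Hochberg adjusted p-values and a threshold of 0.05. The 14 young libraries were fitted alike, and a fit of all 27 tested the difference of the differences. CPM values use TMM factors over the 57 original libraries. Libraries are called replicates from their labels, and p-values measure the spread between these samples. Named genes were those called, the clock lists, in each other list the members past either nephritic test or among the 3 with the largest young differences past the young test, the 10 with the smallest p in the test between the diagnoses and the 10 with the largest young differences past the young test. Havcr1, Tnf and the immune and liver markers were named after their values were seen. Alternatives were DESeq2 1.42.0, limma-voom (limma 3.58.1), other scalings and filters, no set term, single sets, other spreads, repeat libraries, an injury covariate and leaving out each library. Leaving out RX10LU and RX11RU together, and the panel with the 27-library fit, the injury covariate or set 1 alone, were added after seeing the data. Scripts were tested on simulated data. Results of a few genes are not reported here. Repeats and remission libraries were otherwise not used here.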

Additional observations from a re-analysis of the deposited data

Results flagged for a closer look

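The test of nephritic against young mice passed for 21 genes, and each is given as nephritic minus young on the log2 scale. Clock genes gave -2.88 (Npas2), -2.34 (Arntl), 2.98 (Dbp) and 2.43 (Ciart). The others below 0 were Itga4 at -1.81, Dtx4 at -1.36, Micalcl at -1.36, Mmp15 at -1.15, Nav2 at -0.77, Arhgef10l at -0.61, Ppm1h at -0.55, Leo1 at -0.51, Tubb4b at -0.49 and Cdc25a at -0.39. Those above 0 were Pnmt at 15.88, Slc10a6 at 1.83, Tspan4 at 1.00, Ip6k2 at 0.79, Polr3d at 0.71, Klf13 at 0.68 and Mknk2 at 0.55. Adjusted p-values from edgeR ran from 1.16e-06 for Npas2 to 0.0463 for Mknk2.

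A single library stood far from the rest of its group, by Dixon's test, in 13 of 120 groups tested over 60 genes, where chance flags about 5%. The groups are not independent, so the 2 rates cannot be compared. The genes tested include those with the largest young differences, most of them neuroendocrine, and 9 of the 13 flags come from RX10LU as the highest library. RX10LU was the highest nephritic ZT0 library for 9 genes of the adrenal medulla or neuroendocrine cells, with 33.1 CPM of Pnmt, 20.9 of Th, 107 of Chga, 72.6 of Chgb, 25.7 of Scg2, 11.8 of Dbh, 1.86 of Resp18, 1.42 of Rab3c and 1.42 of Phox2a. The next library held at most 0.298 CPM of any of them. RX10LU was also the lowest for Micalcl, at 1.73 CPM against 2.39. At ZT12, RX8RU was the highest for Rab3c at 0.178 CPM, and HIL5RU was the lowest for Csnk1d at 141 CPM against 152 and for Polr3d at 17.5 CPM against 20.9.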

How the results depend on the processing

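The 12 genes called in nephritic kidney kept their direction under all alternatives, most of which refit the libraries that called them. The number of genes called, which need not be the same genes, was 594 with DESeq2, 24 at an adjusted p of 0.1, 661 with all 27 nephritic libraries, 623 with the spread shared with young mice, 210 with the injury covariate, 3 with the repeats in place, 4 in set 2 alone, 1 of them among the 12, and 0 in set 1 alone, where 2549 genes had an unadjusted p under 0.05. It was 0 without RX10LU and RX11RU together, and 2 to 16 with 1 library left out. The count of 21 genes that differed between nephritic and young mice became 176 with DESeq2, 70 at 0.1, 6 in set 2, 59 with a set term for each diagnosis, 219 with all 57 libraries, 9 without both libraries and 10 to 52 with 1 left out. The count of 2579 young calls became 1459 without the set term. The share of young genes with the same direction (67.1%) was 71.6% for a panel of all 1832 genes chosen in young set 2 and tested in nephritic kidney, 77% for a stricter panel, 80% in set 2, 50.3% in set 1, 74.8% with the injury covariate and 62.9% to 73.9% with 1 library left out. For ZT0 genes it was 88.9% and 89.8% for those panels, 63% in set 1, 79.9% with the 27-library fit and 76% to 86.1% with 1 left out. For ZT12 genes it was 56.8% and 67.6%, 75.8% in set 2, 39.4% in set 1, 58.4% with the 27-library fit, 67.9% with the injury covariate and 48.8% to 66.2% with 1 left out. The causes were not tested. Chi-square per degree of freedom between pairs of nephritic libraries was 23.8 to 453, so their spread was wider than counting error, and genes under 100 counts in all were left out by choice. Without that filter 20481 genes were tested and 14 called, with all 12 among them. No paired analysis was possible because ZT0 and ZT12 mice are different animals and replicate numbers follow accession order.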
